A study of Homo sapiens with 2 samples.

Results

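The integrin, adhesion and invasion genes described here are 55 protein-coding genes, taken as a named list, of the 19974 protein-coding genes that RefSeq places on chromosomes 1 to 22 and X of GRCh38. All 55 symbols matched. They comprise 12 integrin subunits, 10 focal adhesion genes, 5 cadherin junction genes, 7 factors and markers of the epithelial-mesenchymal transition (EMT), 8 genes of the TGF-beta pathway, 8 proteases with their inhibitors and receptor, and 5 other matrix and invasion genes. The measurement was chromatin immunoprecipitation followed by sequencing (ChIP-seq) with an antibody to WSTF, the chromatin remodelling protein encoded by BAZ1B, in SW620, an established human colorectal adenocarcinoma line grown from a metastasis in a lymph node. The labels give 2 samples, named SW620 and SW620-IP, with the same cell line and no treatment, and do not name either as the input. WSTF knockdown is named in the series title and WSTF overexpression in the design text, and which of them applies to these cells is not settled by the labels. A single list of 2697 summits was analysed, with no replicate list. The depth is unknown: where a gene has no summit, none was called there, and WSTF is not shown to be absent. The list holds no expression values against which the epithelial identity of the cells could be checked.

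Integrins are pairs of an alpha and a beta subunit that bind matrix outside the cell and, through talin, kindlins and the ILK complex, the actin cytoskeleton inside it. Cadherins hold epithelial cells to each other and are tied to actin by the catenins. In EMT, transcription factors of the SNAI, TWIST and ZEB families repress epithelial cadherin, vimentin and fibronectin rise, and TGF-beta acting through SMAD proteins is a known inducer. Secreted and membrane-bound proteases then open the matrix to invading cells.

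Of the 55 genes, 9 had a summit between their outer limits or at most 1 kb outside them (16.4%, exact Clopper-Pearson 95% interval 7.77 to 28.8). They were ITGB1, ITGB4, ITGB5, TLN1, ZYX, ILK, CTNNA1, VIM and TGFBR2. Among all protein-coding genes the share was 13.8%, which lies inside that interval, so the list as a whole was close to the background. Each of the 9 genes carried exactly 1 summit, and 46 genes had none. Intervals here cover counting error only, and neighbouring genes are not independent.

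The groups differed in their counts, but each interval held the background share. A summit was present at 3 of 12 integrin genes (25%, 5.49 to 57.2), 3 of 10 focal adhesion genes (30%, 6.67 to 65.2), 1 of 5 cadherin junction genes (20%, 0.505 to 71.6), 1 of 7 EMT genes (14.3%, 0.361 to 57.9) and 1 of 8 TGF-beta genes (12.5%, 0.316 to 52.7). None was present at the 8 protease genes, which allows a share of up to 36.9%, or at the 5 matrix and invasion genes, which allows up to 52.2%. With groups this small no order among them can be read, and some counts moved with the setting. The focal adhesion count was 0 when a summit had to lie inside the gene, 1 without summits below the median score and 1 when each summit went to the nearest gene end. The cadherin count was 0 under the first 2 of these settings, the TGF-beta count 0 without summits below the median score, and the EMT count 0 with gene ends alone.

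**Figure D1:**
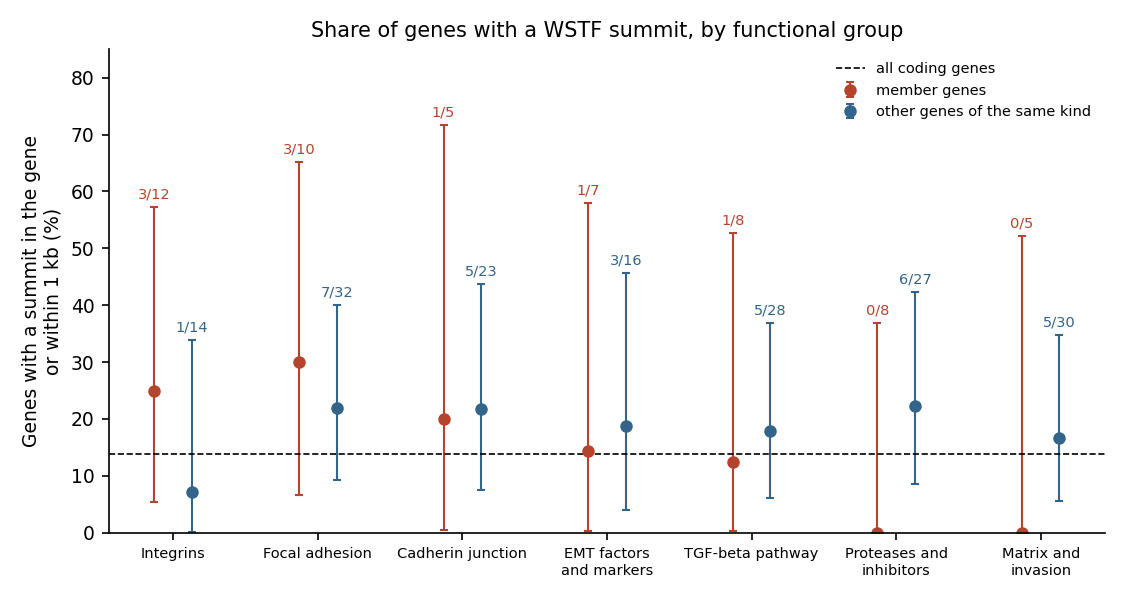
Share of genes that carry a summit, inside or up to 1 kb outside (vertical axis, percent), in each functional group, for the 55 genes and for 170 other genes of the same kind; bars are exact 95% intervals, the fractions above them are counts, and the dashed line is the 13.8% of all protein-coding genes. The dashed line crosses every bar, including those of the protease and matrix groups, where no member had a summit.

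The integrin genes with a summit were ITGB1, ITGB4 and ITGB5. ITGB1 encodes the beta subunit shared by the largest set of matrix receptors, and ITGB4 the partner of ITGA6 in hemidesmosomes. The ITGB4 summit lay on chromosome 17 at position 75721278 (hg38), 181 bp outside the lower boundary of the gene (75721459 to 75757818). Its score, the −log10 q-value of the peak caller, was 6.74, the highest of the 9, at rank 235 of 2697. The ITGB1 summit lay on chromosome 10 at position 32958046, inside the gene and 184 bp after its start, with a score of 5.82 (rank 411). ITGB5, which pairs with ITGAV, differed from both. Its summit, at position 124813138 on chromosome 3 with a score of 3.43, lay deep in the gene body, 88.3 kb after the first listed start and 51190 bp from the nearer gene end.

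The other integrin genes had no summit within reach of the rule. ITGA3, a laminin receptor subunit, was nearest, with a summit 4.94 kb away that lay 686 bp from an end of PDK2. ITGB3 followed at 64.5 kb, and ITGA6, ITGA5 and ITGB6 lay between 342 and 387 kb from a summit. ITGA2, ITGA1, ITGB8 and ITGAV lay between 1.42 and 3.1 Mb from one. The collagen receptor genes ITGA1 and ITGA2 are neighbours on chromosome 5 and had the same nearest summit, beside SNX18.

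The 3 focal adhesion genes with a summit all had it before their start. ZYX encodes zyxin, a LIM protein of focal adhesions and stress fibres. Its summit lay on chromosome 7 at position 143381170, 175 bp before the start, with a score of 3.83. ILK encodes the scaffold that links beta integrins to parvin and PINCH proteins, and its summit, at position 6603538 on chromosome 11, lay 236 bp before the start with a score of 3.72. TLN1 encodes talin, which binds and activates integrin beta tails. Its summit, at position 35732633 on chromosome 9, lay 438 bp before the start with a score of 2.68.

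At ILK and TLN1 the summit was closer to a neighbouring protein-coding gene. The ILK summit lay 78 bp inside RRP8, which runs in the opposite direction, and the TLN1 summit lay 33 bp before the start of CREB3, a membrane-bound transcription factor gene that also runs in the opposite direction. When each summit was given to the protein-coding gene with the nearest end, an alternative chosen after seeing the data, TLN1 and ILK dropped out and 7 of the 55 genes (12.7%) remained, against 11.7% of all protein-coding genes. The ZYX summit was nearest to ZYX among protein-coding genes, although it also lay inside FAM131B, 1134 bp from its start, and 145 bp before FAM131B-AS2, a non-coding gene. The list does not tell which gene of such a pair a summit belongs to.

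The remaining focal adhesion genes lay farther off. FERMT1, a kindlin gene, had its nearest summit 68.6 kb away, PARVA 139 kb, PTK2 147 kb, VCL 186 kb and PXN 221 kb. PTK2 encodes focal adhesion kinase, VCL vinculin and PXN paxillin. For LIMS1, which encodes the ILK partner PINCH, the distance was 927 kb, and for FERMT2 it was 1490 kb. Of the ILK complex, ILK thus had a summit and LIMS1 and PARVA had none.

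At cell-cell junctions the single gene with a summit was CTNNA1, which encodes alpha-catenin, the link from the cadherin complex to actin. The summit lay on chromosome 5 at position 138753176, 249 bp before the first of 4 listed starts, with a score of 2.36, the lowest of the 9. It also lay inside CTNNA1-AS1, a non-coding gene on the other strand, 133 bp after a listed start of that gene and so closer to it. The cadherin genes themselves had none. CDH3 and CDH1, neighbours on chromosome 16 that encode P-cadherin and E-cadherin, shared a nearest summit 106 and 198 kb away, and CDH2, which encodes N-cadherin, was 6228 kb from one. CTNND1, the p120-catenin gene, had its nearest summit 49.6 kb away, beside MED19. The summits around CDH1 and CDH3 were not sparse: 22 and 24 lay within 1 Mb of these genes.

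None of the 5 EMT transcription factor genes among the members had a summit, a count of 0 that allows a share of up to 52.2% and so includes the background of 13.8%. SNAI1 and ZEB1 had one 67.4 and 73.8 kb away, SNAI2 909 kb away, TWIST1 1173 kb away and ZEB2 7816 kb away. VIM, which encodes the intermediate filament protein vimentin, was the one gene of the group with a summit, at position 17229449 on chromosome 10, with a score of 5.78 (rank 424). It lay inside the gene, 1208 bp after the start, and 536 bp inside VIM-AS1, which runs the other way. FN1, the fibronectin gene, was 551 kb from the nearest summit.

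In the TGF-beta pathway the summit lay at TGFBR2, which encodes the receptor kinase that binds the ligand. Its position on chromosome 3 was 30606536, 180 bp after the first of 2 listed starts and 65 bp before the other, and its score was 2.83. A gene on the opposite strand, LOC105377015, also spans this position. TGFBR1, the partner receptor, was 279 kb from a summit. Of the ligands, TGFB1 was 20.1 kb from a summit beside CCDC97 and TGFB2 1602 kb from one. SMAD3 had a summit 59.6 kb away.

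The other SMAD genes lay in a stretch without summits. SMAD2, SMAD7 and SMAD4 are on chromosome 18, as is CDH2, and their nearest summit was the same one, beside MIB1 at position 21704922, between 26.1 and 29.3 Mb from the SMAD genes. Chromosome 18 held 11 summits, that one was the last, and 194 protein-coding genes start more than 1 kb beyond it. The absence at these 4 genes is shared with all genes of that stretch.

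The protease genes had no summit, but most had one at moderate distance. TIMP2, a metalloprotease inhibitor gene, was nearest at 12.2 kb, from a summit beside USP36. TIMP1, MMP9, MMP14 and PLAU, the urokinase gene, lay between 64 and 97.1 kb from a summit. MMP7 was 203 kb away, MMP2 549 kb and PLAUR, the urokinase receptor gene, 830 kb. The median distance of the 8 genes was 89.5 kb, against 184 kb for all protein-coding genes and 198 kb for all 55 members.

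Of the matrix and invasion genes, COL1A1 was 88.7 kb and the hyaluronan receptor gene CD44 223 kb from a summit. SPARC, S100A4 and the lysyl oxidase gene LOX were between 1004 and 2671 kb from one. COL1A1 and ITGA3, on the same part of chromosome 17, shared the summit beside PDK2 as their nearest. In all, 15 of the 46 genes without a summit (27.3% of the 55) had their nearest one more than 1 Mb away, as did 19.5% of all protein-coding genes. The 46 genes had 38 distinct nearest summits, and 31 of these lay within 1 kb of the end of another protein-coding gene. The same share over all 2697 summits was not computed, so nothing particular to these genes can be read from it.

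**Figure D2:**
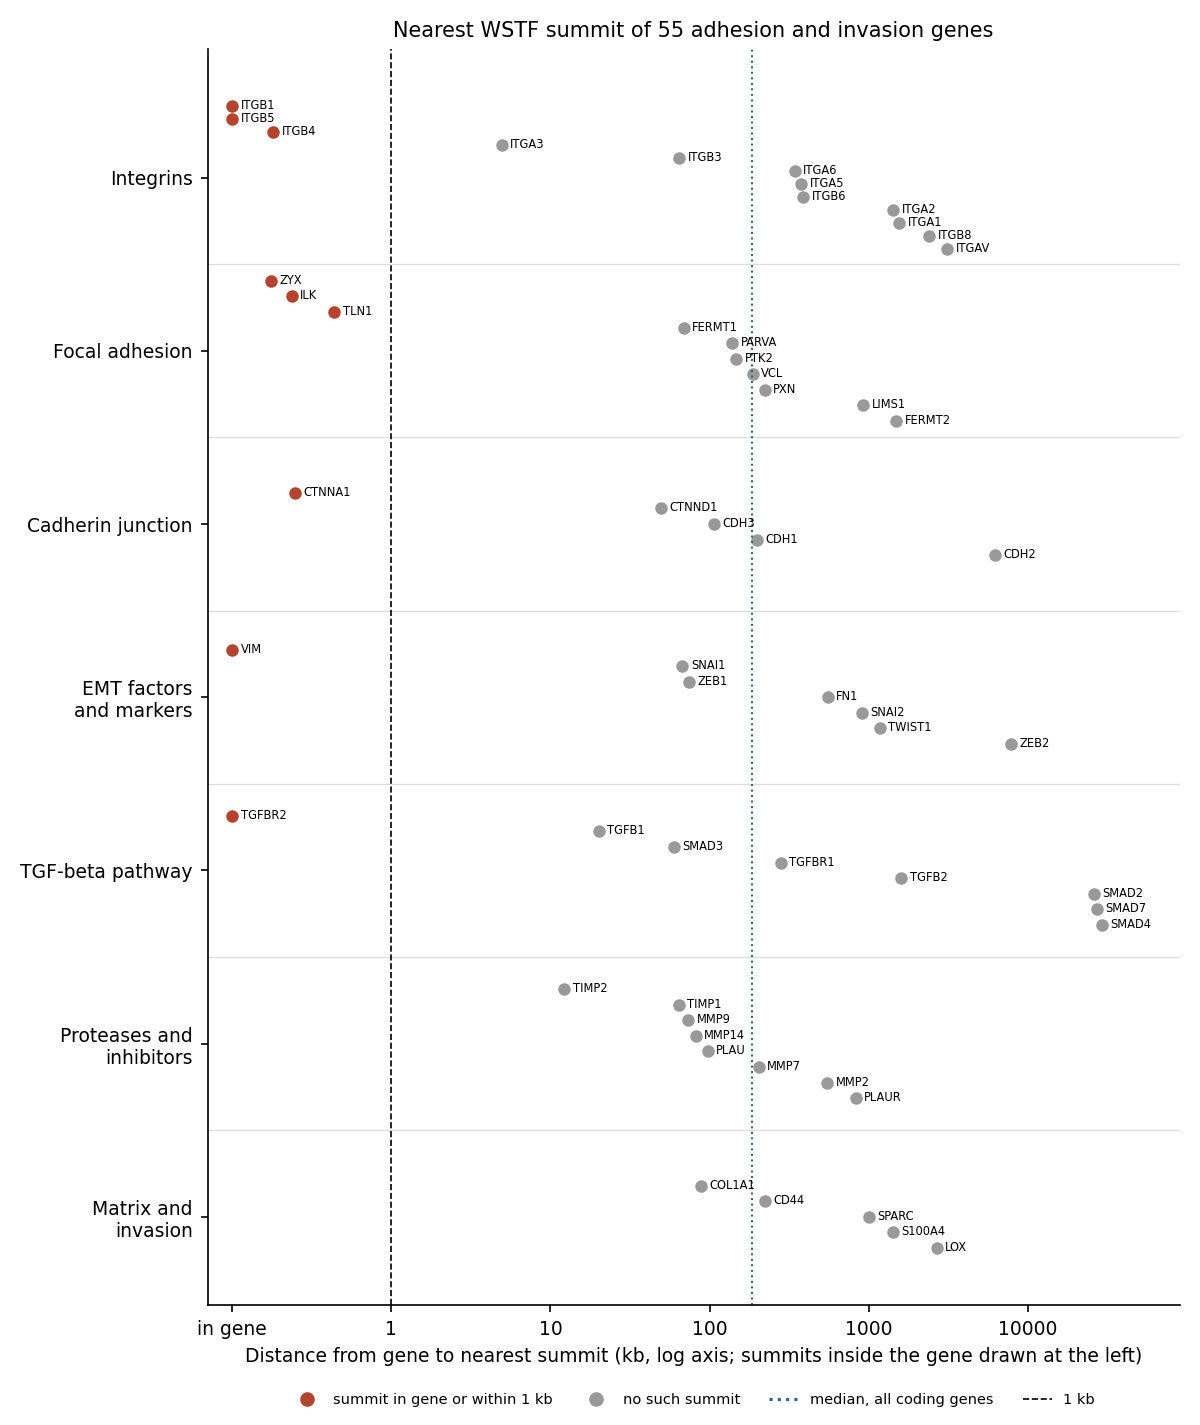
Distance from each of the 55 genes to its nearest summit (horizontal axis, kb, log scale, with summits inside the gene drawn at the left), by functional group. The 9 genes left of the dashed 1 kb line are those with a summit, ITGA3 at 4.94 kb is the next, the dotted line is the median of 184 kb for all protein-coding genes, and SMAD2, SMAD7 and SMAD4 lie farthest to the right.

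The scores of the 9 summits were ordinary for the list. Their median was 3.72, as it was for all 2697 summits, and 3.74 was the median of the highest score per gene over all 2765 protein-coding genes with a summit. ITGB4, ITGB1 and VIM lay above the list's upper quartile of 5.04. ZYX, ILK and ITGB5 lay near its middle, and TGFBR2, TLN1 and CTNNA1 scored between 2.36 and 2.83, TLN1 and CTNNA1 below the lower quartile of 2.76. None reached 10, a score that 42 summits of the list reached. A score ranks a summit within this list and is the authors' own value.

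**Figure D3:**
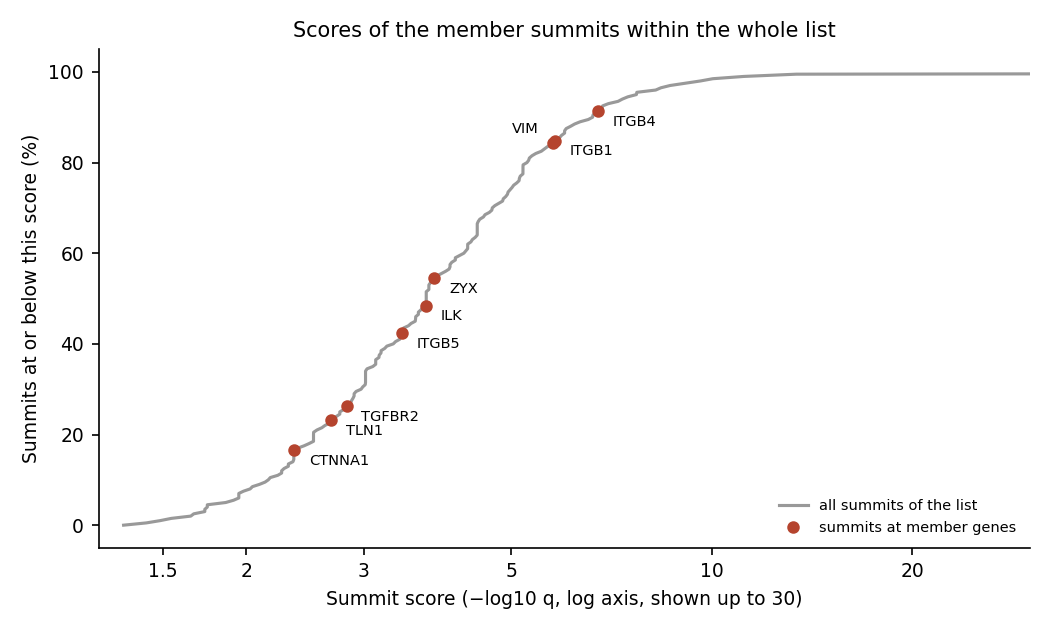
Percentage of all 2697 summits at or below a given score (vertical axis) against the score (horizontal axis, −log10 q on a log scale up to 30); the line is the whole list and the points are the 9 member summits. ITGB4 at 6.74, ITGB1 at 5.82 and VIM at 5.78 stand in the upper part of the curve and CTNNA1 at 2.36 is the lowest point.

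Start sites were available for 39 of the 55 genes, and 6 of these (15.4%) had a summit within 1 kb of one, namely ITGB1, TLN1, ZYX, ILK, CTNNA1 and TGFBR2. The share over all 15812 protein-coding genes with a listed start was 12.9%. In 5 of the 6 the summit was within 250 bp of the nearest start, and in 5 of the 6 it lay before that start, ITGB1 being the exception. Over all 2045 such genes 73.6% of the summits were within 250 bp, 57.1% lay before the start, and the quartiles ran from 183 bp before to 106 bp after it. ITGB4 has no listed start and is not in this count, and the summits of VIM and ITGB5 lay beyond 1 kb.

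**Figure D4:**
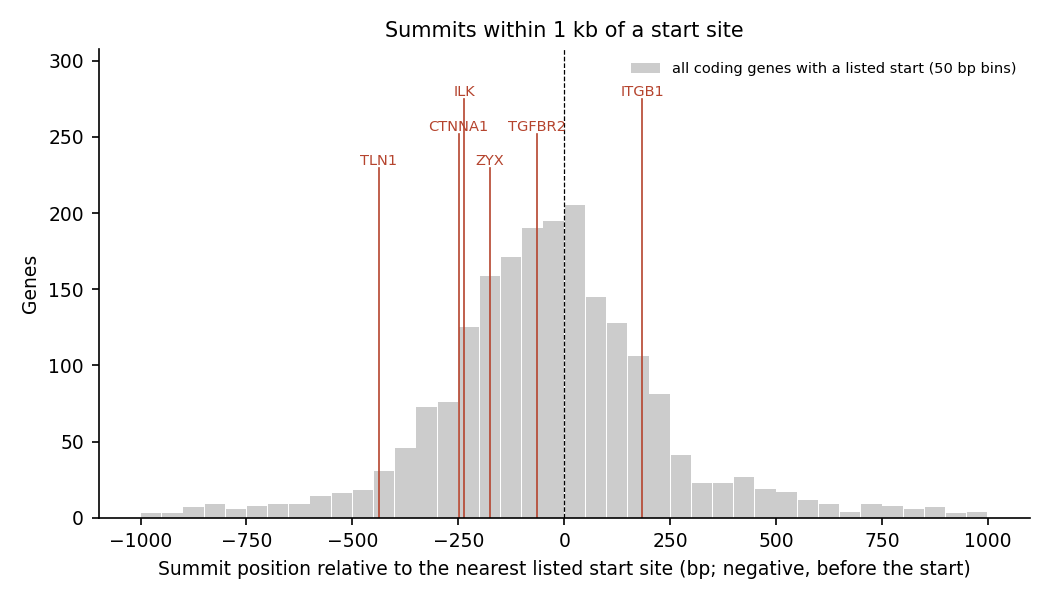
Position of the summit relative to the nearest listed start (horizontal axis, bp, negative before the start); grey bars count the 2045 protein-coding genes where this distance is at most 1 kb and red lines mark the 6 members. The members fall within the main body of the distribution, from TLN1 at 438 bp before to ITGB1 at 184 bp after the start.

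The promoters are shown for ZYX and CTNNA1, which are among the genes whose windows contain the summit. They are also shown for ITGB1, whose summit lies just beyond the start, and for VIM, whose summit lies farther inside the gene. Each run is the 250 bases before the start on the gene's own strand, from RefSeq, GRCh38.p14. Capitals mark GC boxes, the sequence GGGCGG bound by SP and KLF family factors, on either strand, where matches may overlap.
ZYX, chr7:143381095-143381344, plus strand: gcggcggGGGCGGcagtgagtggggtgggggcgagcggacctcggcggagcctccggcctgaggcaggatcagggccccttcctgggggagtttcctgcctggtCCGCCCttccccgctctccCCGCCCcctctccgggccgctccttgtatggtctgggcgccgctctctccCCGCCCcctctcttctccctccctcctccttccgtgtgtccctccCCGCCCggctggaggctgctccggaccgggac
CTNNA1, chr5:138753175-138753424, plus strand: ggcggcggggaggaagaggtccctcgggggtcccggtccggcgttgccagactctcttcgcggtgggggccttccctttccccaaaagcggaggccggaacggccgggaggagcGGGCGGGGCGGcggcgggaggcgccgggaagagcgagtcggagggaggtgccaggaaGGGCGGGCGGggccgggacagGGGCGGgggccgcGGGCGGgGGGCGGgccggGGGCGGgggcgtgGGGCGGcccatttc
ITGB1, chr10:32958231-32958480, minus strand: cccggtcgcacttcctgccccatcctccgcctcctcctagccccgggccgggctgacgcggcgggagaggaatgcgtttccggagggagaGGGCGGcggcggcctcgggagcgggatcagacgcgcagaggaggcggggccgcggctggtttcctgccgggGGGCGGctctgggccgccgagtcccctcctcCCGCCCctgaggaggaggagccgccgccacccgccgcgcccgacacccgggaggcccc
VIM, chr10:17227991-17228240, plus strand: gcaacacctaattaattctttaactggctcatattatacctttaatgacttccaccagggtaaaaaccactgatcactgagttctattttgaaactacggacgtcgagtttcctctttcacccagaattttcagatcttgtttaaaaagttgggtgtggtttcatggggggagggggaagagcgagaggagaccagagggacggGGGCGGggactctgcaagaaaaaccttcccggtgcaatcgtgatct

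The ZYX summit is base 76 of its run and the CTNNA1 summit base 2, counted from the 5′ end. The CTNNA1 run holds 9 GC boxes, the ZYX run 5, the ITGB1 run 3 and the VIM run 1. A GC box was found in 56% of all 15812 first-listed promoter windows of this length. The G and C content was 80% at CTNNA1, 78.4% at ITGB1, 74.8% at ZYX and 46% at VIM. The 250 bases before the ILK start, not shown, also contain the summit of their gene, at base 15. They hold 2 GC boxes and 72.8% G and C.

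Over windows of 300 bases, from 250 before to 50 after the first listed start, the 8 genes with both a summit and a listed start had a median of 71.7% G and C and 31.5 CpG dinucleotides. The 31 listed members without a summit had 65% and 19, all protein-coding genes 62.7% and 22, and the 2045 genes whose start had a summit at most 1 kb away 68.7% and 30. The ranges overlapped: the members with a summit ran from 42.3% at TGFBR2 to 78.3% at ITGB1, and those without from 31.7% at ITGB6 to 83.3% at LIMS1. A GC box stood in the windows of 7 of the 8 genes with a summit (87.5%) and of 19 of the 31 without (61.3%). The share was 58.5% over all protein-coding genes and 77.7% over those whose start had a summit at most 1 kb away. Of the 8 windows, only those of ZYX, ILK and CTNNA1 contain the summit itself. TGFBR2 had the only window of the 8 without a GC box. The 250 bases before the other TGFBR2 start do contain its summit, at base 186, and hold 2 GC boxes and 58.4% G and C. ITGB5 also has other starts. The 250 bases before the last of its 3 listed starts hold 3 GC boxes and 75.2% G and C, but not the summit. The ETS core CGGAAG stood in the windows of ITGB5, TLN1 and ZYX (37.5% of the 8), in 2 of the 31 without a summit and in 25.6% of all. Its share among the 2045 genes with a summit within 1 kb of a start was 36.6%, close to that of the 8. The CCAAT box was found in 1 of the 8 (TGFBR2) and in 36.3% of all. The E-box CACGTG was found in 1 of the 8 (ILK) and in 8.87% of all. None of the 8 held the E2 box CACCTG bound by SNAI and ZEB factors (19.9% of all), the AP-1 site TGANTCA (5.76%), the CRE TGACGTCA (2.59%), the NRF1 site GCGCNTGCG (11%), the YY1 site AAGATGGCG (2.74%), the TATA box TATAAA (9.64%) or the SMAD palindrome GTCTAGAC (0.221%). Among the 2045 genes with a summit within 1 kb of a start, 20.4% held the NRF1 site. Motifs were sought on both strands, and a match is a description of the sequence, not a bound site.

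**Figure D5:**
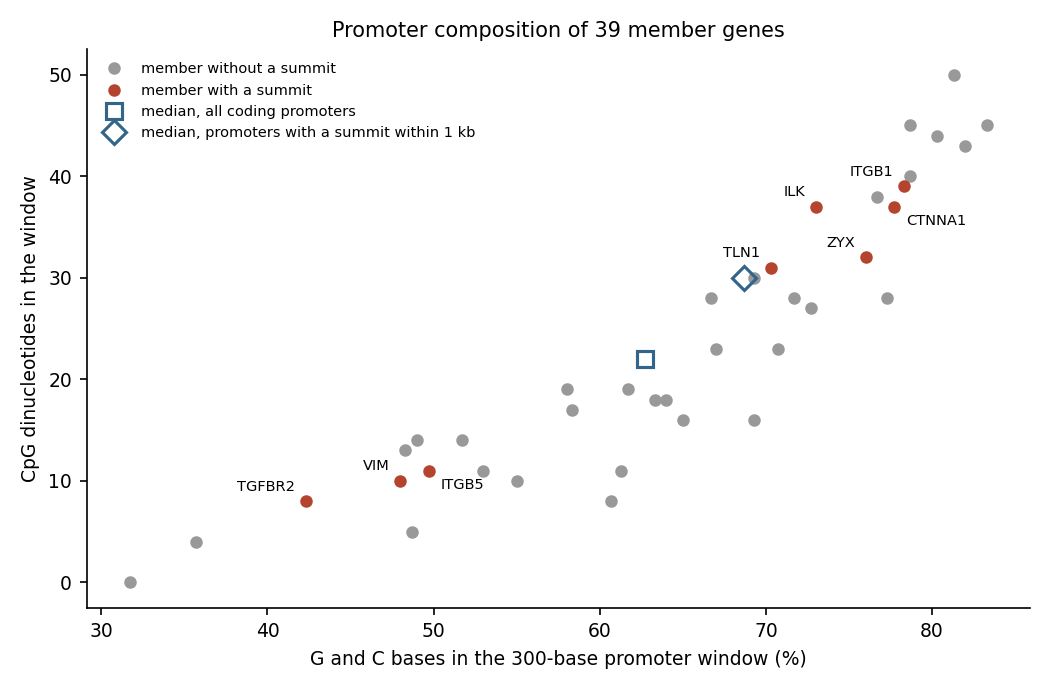
G and C content (horizontal axis, percent) and number of CpG dinucleotides (vertical axis) in the 300-base window at the first listed start of 39 members; red points are members with a summit, grey points those without, and open symbols are medians over all protein-coding promoters and over those with a summit within 1 kb. ITGB1, CTNNA1, ZYX, ILK and TLN1 lie at or above 70.3% G and C, while TGFBR2, VIM and ITGB5 lie below 50%, and members without a summit span the whole range.

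The members with a summit had a median length of 36.4 kb (7.1 to 182 kb) and the 46 others one of 58.8 kb (2.19 to 344 kb), so their ranges overlapped. Over all protein-coding genes the medians were 29.3 kb with and 23.4 kb without a summit. Within 1 Mb the 9 genes had a median of 1 other summit (0 to 13, the highest at ITGB4), against 2 for the 46 others. That median was 4 for all protein-coding genes with a summit and 2 for those without. CTNNA1 had 8 other summits and ILK 4. ITGB1, TLN1 and TGFBR2 had no other summit within 1 Mb.

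In a wider list of 170 genes of the same 7 kinds, a summit was counted at 32 (18.8%, 13.2 to 25.5), against the 13.8% of all protein-coding genes. The median gene length was 50.1 kb in this list, 57.7 kb for the 55 members and 24.2 kb for all protein-coding genes. Summits anywhere in a gene were counted, and a link between length and these shares was not tested. When each summit was given to the gene with the nearest end, 26 remained (15.3%, against 11.7% of all). Each group's interval in this list held the 13.8% share of all protein-coding genes. Integrin genes had the lowest count here, 1 of 14 (7.14%, 0.181 to 33.9). It was ITGAE, the partner of ITGB7, with a summit of score 5.91 in the gene body. That summit lay 5 bp from an end of P2RX5 and 9212 bp from the nearer end of ITGAE. Focal adhesion genes had 7 of 32 (21.9%, 9.28 to 40). BCAR1, which encodes the adaptor p130Cas, held 3 summits with scores of 3.13, 6.62 and 7.4, the last lying 23 bp before a listed start. VASP, an actin regulator gene, had a summit of score 6.41 lying 839 bp before its start. Cadherin junction genes had 5 of 23 (21.7%, 7.46 to 43.7). These were NECTIN1, PKP2, PKP3, PKP4 and DSP, named after their values were seen, with scores from 1.67 to 3.81. The desmosomal genes JUP, PKP1, DSG2 and DSC2 of the same group had no summit.

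EMT genes of the wider list had 3 of 16 (18.8%, 4.05 to 45.6). The scores were high: TCF3, an E-box factor gene (13.4), ZNF217 (8.23) and the epithelial splicing factor gene ESRP2 (5.68). TGF-beta genes had 5 of 28 (17.9%, 6.06 to 36.9). They were SMURF2 (6.63), BMPR1A (6.53), SMURF1 (6.52), SKI (6.01) and PMEPA1 (3.93), all with higher scores than TGFBR2 (2.83). SMURF1 and SMURF2 encode ubiquitin ligases that act on SMAD proteins and receptors, SKI a SMAD co-repressor and BMPR1A a BMP receptor. The SMURF2 summit lay 14 bp after the start.

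Protease genes of the wider list had 6 of 27 (22.2%) where the 8 members had none. ADAM15, a membrane metalloprotease gene, scored highest (5.2), with its summit 128 bp before the start. The matrix group had 5 of 30 (16.7%, 5.64 to 34.7): COL4A2, LAMA5, LOXL1, GPC1 and S100A10, named after their values were seen, with scores of at most 3.83. LAMA5, a laminin chain gene and so the gene of an integrin ligand, held 3 summits. Their scores were 1.6, 3.83 and 3.4, the last lying 320 bp before its start. Several summits were held by 3 of the 32 wider-list genes with a summit, and by 164 of 2765 over all protein-coding genes. The difference between the member and wider protease lists was not tested, and the wider list's interval of 8.62 to 42.3% overlaps that of the members.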

How the data were processed

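The submitters' processing notes name Trimmomatic 0.39, Bowtie2 2.4.4, build hg38 and MACS2 2.2.7.1, and the design text says that peaks were called against input DNA. The sources used here do not say whether replicates were pooled. The deposited list gives 1 base per summit and a score, read as the −log10 q-value of the authors' peak caller because the values start at 1.31 and a q of 0.05 equals 1.3.

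Summits were placed with Python 3.11.15, pandas 2.3.3 and NumPy 2.4.6 in the RefSeq gene table of GRCh38.p14, whose coordinates are those of hg38. A gene was counted with a summit between its outer limits or within 1 kb of them. Starts and sequences came from RefSeq promoter windows of the same assembly, and 16 members have none listed. In them 11 motifs were searched. Intervals are exact Clopper-Pearson (SciPy 1.17.1). No test was run, since there is 1 list and no replicate. Every member with a summit is named, members without one by their nearest summit, and wider-list genes mainly by score. The members and lists were chosen with earlier results of these data known. Counting was checked on simulated summits.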

Additional observations from a re-analysis of the deposited data

How the results depend on the processing

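The count of 9 members became 10 (18.2%) with a window of 5 or 10 kb, ITGA3 being added. Of all protein-coding genes, 15.6% and 17.8% had a summit there. The count was 7 (12.7%) with gene ends alone, without ITGB5 and VIM, against 11.6% of all. It was also 7 with each summit given to the nearest gene end, against 11.7%. Scores of at least 2 and the 3 highest summits left out both gave 9, against 12.8% and 13.8%. Neither setting could change the count, as member scores ran from 2.36 to 6.74 and 42 summits reached 10. The count was 4 (7.27%) when a summit had to lie inside the gene, where 8.15% of all protein-coding genes had one. It was also 4 when summits below the median score were dropped, where 7.34% had one. The latter were ITGB1, ITGB4, ZYX and VIM. The count of 32 in the wider list became 19 with gene ends alone (11.2%), where the share was no longer above that of all protein-coding genes (11.6%). It became 17 without summits below the median score (10%, against 7.34% of all). The median distance of 198 kb for the 55 members became 599 kb without summits below the median score. Under that setting the median over all protein-coding genes was not computed. These settings use fewer summits or a smaller window. Of 77 alternative values, 65 stayed within 1.5 times the first, but some of these could not move. They include the protease and matrix counts of 0, which no stricter setting can lower. They also include the mean score per gene, since each of the 9 members carried exactly 1 summit. No paired analysis was possible because there is 1 list and no replicate. The unknown read depth limits what an absent summit can show.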
